A study of Mus musculus with 2 samples.

Results

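Gingival fibroblasts were picked out of 2 single-cell RNA libraries of mouse gingiva as cells with at least 10 unique molecular identifiers (UMIs, each counting 1 captured RNA molecule) of Col1a1, Col1a2 and Col3a1 together, at most 1 UMI of the leukocyte gene Ptprc and under 3% of UMIs from the neutrophil genes S100a8 and S100a9. The rule left 322 members among 21208 cells that had 500 or more UMIs from 200 or more genes, no more than 15% of them mitochondrial, with 19 of 10948 cells in the normoglycemic library (0.174%, exact Clopper-Pearson 95% interval 0.105 to 0.271) and 303 of 10260 in the diabetic library (2.95%, interval 2.63 to 3.30). All mice carried the genotype CD11CCre-/-;FoxoLL on a mixed C57B6 - FVB background, in which loxP sites flank part of Foxo1 and no Cre is present, so that Foxo1 is intact in both groups. Type I diabetes was induced with streptozotocin in one group, and the other group stayed normoglycemic. Both groups had 2 weeks of bacterially driven inflammation followed by 2 weeks of waiting, and each library pooled 4 mice with no replicate. The sort removed dead, CD31+ and Ter-119+ cells, kept CD45+ cells and enriched CD11c+CD45+ cells to 20%. A fibroblast in these libraries is therefore a cell that the sort was not set up to keep. The condition, the pool and the sort of a library cannot be told apart. With 1 library per condition no test between conditions exists, and every interval below covers counting error only.

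Fibroblasts of the gingiva, the mucosa that surrounds the teeth, make and remodel the collagen-rich connective tissue beneath the oral epithelium. Collagen I and collagen III chains are assembled into fibrils whose spacing is set by small leucine-rich proteoglycans such as decorin, while fibrillins, elastin and latent TGF-beta binding proteins form elastic fibres. During gum inflammation fibroblasts are also known to release chemokines that attract neutrophils, monocytes and eosinophils, and complement proteins.

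Upstream sequences are shown for 4 members' genes on which the results turn, namely Col1a2 and Col3a1, which helped to choose the cells, Cxcl1, a neutrophil chemokine, and Cxcl13, a B cell chemokine found in diabetic fibroblasts. Each run is the 150 bases before the annotated start on the plus strand of GRCm38.p6, from RefSeq, and capitals mark letters found by a search of both strands for 3 patterns. These were the CCAAT box, the TATA box with the letters TATAAA, and the kappa B pattern of GGG, any 2 bases and TTTCC.
Col1a2 (chr6:4505468-4505617): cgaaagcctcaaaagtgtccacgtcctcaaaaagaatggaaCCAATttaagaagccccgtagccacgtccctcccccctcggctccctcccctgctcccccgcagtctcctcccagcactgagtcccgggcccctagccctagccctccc
Col3a1 (chr1:45311388-45311537): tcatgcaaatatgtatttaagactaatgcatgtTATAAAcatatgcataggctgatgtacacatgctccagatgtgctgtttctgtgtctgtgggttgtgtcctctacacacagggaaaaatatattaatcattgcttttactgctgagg
Cxcl1 (chr5:90891095-90891244): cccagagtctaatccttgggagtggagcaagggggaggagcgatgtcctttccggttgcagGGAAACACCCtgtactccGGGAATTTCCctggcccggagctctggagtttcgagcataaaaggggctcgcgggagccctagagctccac
Cxcl13 (chr5:95956789-95956938): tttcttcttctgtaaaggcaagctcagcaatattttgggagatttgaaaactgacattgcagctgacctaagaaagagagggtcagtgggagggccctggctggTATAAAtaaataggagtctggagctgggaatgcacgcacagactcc
The CCAAT box was found in 25.3% of 27025 promoters searched over the same length, the TATA box in 8.08% and the kappa B pattern in 0.907%. The Cxcl1 sequence held the kappa B pattern once on each strand, and the capitals GGAAACACCC are its reverse complement. These matches describe letters only, and neither binding nor use of a site was measured. Col1a1, Dcn and Cxcl5 are named without a sequence.

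Members held more UMIs than other cells. The median was 12149 UMIs per member in the normoglycemic library (range 3566 to 25038) and 13384 in the diabetic library (range 2003 to 59166), and other cells had medians of 5300 and 4520 UMIs. Summed over members this gave 220897 and 4578693 UMIs, so the normoglycemic side sets the precision of any comparison between libraries. Levels below are UMIs summed over the cells of a class and scaled to a total of 1000000 (CPM), which count RNA 3′ ends and are not divided by gene length. A total of 32 cell barcodes occurred in both libraries, and 2 of them were members.

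Decorin (Dcn, 10:97479500-97518163), the fibroblast marker that the rule did not use, was found in most members but not in all. It had at least 1 UMI in 16 of 19 normoglycemic and 244 of 303 diabetic members. After each cell was thinned to 1000 UMIs the shares were 78.9% (interval 54.4 to 93.9) and 74.6% (69.3 to 79.4), against 0.215% and 1.11% of all other cells. Those other cells include some with at least 10 collagen UMIs that failed the rule, so their shares are not those of free RNA alone. Some members carried genes of another cell type. Acta2, Tagln, Myh11 and Rgs5, genes of mural cells that wrap vessels, reached 10 UMIs in sum in 68 diabetic members and 1 normoglycemic member. A sum of genes of Schwann cells, which sheathe nerves, Sox10 and Cdh19 among them, reached 10 UMIs in 12 and 4 members, and the epithelial keratin sum reached 10 UMIs in none. Among the 14 normoglycemic and 223 diabetic members under both limits, called strict members below, decorin had a UMI in 100% and 99.1% of cells. Strict members made up 0.128% and 2.17% of all cells.

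In the diabetic members the mural list summed to 3276 CPM against 691 CPM in all other cells, with 9 of 10 genes at least 2-fold higher, and the Schwann list to 470 against 139 CPM, with 5 of 6 higher. In strict members the sums were 146 and 277 CPM. Blood and epithelial markers were lower. The 12 leukocyte genes summed to 536 CPM against 27338 CPM in all other cells, the neutrophil list to 244 against 7694 CPM, the epithelial list to 14.0 against 640 CPM and the red cell list to 5.68 against 330 CPM. Ptprc was at 0 in 18 of 19 and 285 of 303 members. A further 6 normoglycemic and 31 diabetic cells had at least 10 collagen UMIs but failed the rule. Ptprc was over its limit in 6 and 27 of them, the S100 share in 1 and 18, and decorin was at 8761 and 5447 CPM in sum. At the edge of the collagen limit, 19 diabetic cells with 10 to 12 collagen UMIs had decorin at 5494 CPM and 10 of them had a decorin UMI, while 3 of 21 cells with 7 to 9 collagen UMIs did, at 1274 CPM in sum. No normoglycemic cell lay in either range.

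The collagens described the members first. In the diabetic library Col1a1 stood at 3515 CPM, Col1a2 at 3876 CPM and Col3a1 at 4865 CPM in members, values that the rule itself selected. The ratio of Col1a1 to Col1a2 UMIs, the 2 chains of collagen I, was 0.834 in the normoglycemic and 0.907 in the diabetic members, and that of Col3a1 to the 2 collagen I genes together was 0.625 and 0.658. All 18 measured collagen genes were at least 2-fold higher in diabetic members than in all other cells of that library, where 30.3% of 6971 genes were at least 2-fold higher and 16.6% at least 2-fold lower. The 2113 higher and 1155 lower genes became 1081 and 1974 under trimmed-mean (TMM) scaling, which shifted all log2 ratios by -0.71. The members were chosen by collagen in this same contrast, so these counts describe the cells and test nothing.

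Collagens outside the rule included Col5a1 (295 CPM) and Col5a2 (672 CPM), chains of the collagen V that starts fibrils. Col6a1, Col6a2 and Col6a3, the chains of microfibrillar collagen VI, stood at 693, 573 and 454 CPM against 6.74, 5.16 and 4.75 CPM in other cells. Each had a UMI in at least 86.1% of diabetic members. The enzymes and chaperones that process collagen were high with them, 19 of 22 at least 2-fold higher and none lower. Serpinh1, the collagen chaperone HSP47, was at 922 against 17.9 CPM, the procollagen protease enhancer Pcolce at 422 against 5.73 CPM, and the crosslinking oxidases Lox and Loxl1 at 209 and 262 CPM against 3.63 and 2.31 CPM. P4hb, a disulfide isomerase and prolyl hydroxylase subunit that secretory cells share, did not stand apart at 370 against 330 CPM.

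All 10 measured small leucine-rich proteoglycans and all 16 elastic fibre genes were at least 2-fold higher in members, also under TMM scaling. Decorin was at 9565 CPM against 68.4 CPM (ratio 140, interval 136 to 144), lumican (Lum), which shapes collagen fibrils, at 1309 against 7.53 CPM (ratio 174, 159 to 190) and biglycan (Bgn) at 1206 against 17.1 CPM. Fibrillin-1 (Fbn1), the backbone of microfibrils, was at 576 against 6.36 CPM. Of 27 matrix glycoproteins 25 were at least 2-fold higher, with Sparc, which binds collagen, at 4775 against 80.9 CPM. Fibronectin (Fn1), an adhesive glycoprotein that other cells also carried, stood closer at 1248 against 838 CPM.

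Matrix proteases (20 of 23 higher) and their inhibitors (12 of 13 higher) were both mostly higher. Mmp2, a gelatinase, was at 837 against 5.88 CPM, Mmp3 (stromelysin) at 762 against 16.5 CPM, and cathepsin K (Ctsk) at 226 against 7.20 CPM. Mmp9, the gelatinase of neutrophils, was at 2.62 against 81.2 CPM. Among the inhibitors Timp1 was at 2075 against 157 CPM, and the C1 inhibitor Serping1, which restrains complement, at 1360 against 24.6 CPM. Mmp13, collagenase 3, had 2857 UMIs in only 24 diabetic members, with 26.7% of them in 1 cell.

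The chemokines divided by gene. Cxcl12, which retains CXCR4+ cells, was at 552 against 9.17 CPM in other cells, the eosinophil chemokine Ccl11 at 988 against 19.3 CPM (ratio 51.2, 48.2 to 54.3), and Cxcl14 at 1706 against 31.6 CPM. Ccl2, the monocyte chemokine, was at 1260 against 445 CPM. Of the 6 measured neutrophil chemokines only Cxcl5 was at least 2-fold higher, at 1172 against 70.5 CPM, and its UMIs came from 53 of 303 members. Cxcl1 was close to other cells at 2348 against 1599 CPM (ratio 1.47, 1.44 to 1.498), and mural cells had it at 2719 CPM. Cxcl2 was at 1302 CPM in members against 28333 CPM in other cells.

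Among cytokines, Il33, an alarmin kept in the nucleus, was at 261 against 3.85 CPM, and Il6 at 597 against 98.6 CPM, below the 1511 CPM of mural cells. Il1b was at 196 against 11415 CPM. The receptors Osmr for oncostatin M and Il1r1 for interleukin-1 were at 127 against 6.04 CPM and 134 against 10.2 CPM. All 12 measured complement genes were at least 2-fold higher in members, with C3 at 808 against 92.7 CPM and the classical pathway protease C1s1 at 404 against 6.98 CPM. Antigen presentation showed the reverse, with 12 of 17 genes at least 2-fold lower and the invariant chain Cd74 at 34.9 against 6958 CPM.

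Growth factor and WNT genes (23 of 27 and 16 of 17 at least 2-fold higher) included the keratinocyte growth factor Fgf7 at 135 against 1.79 CPM, Igf1 at 555 against 12.3 CPM and the secreted WNT antagonist Sfrp1 at 237 against 6.36 CPM. Pdgfra, the platelet-derived growth factor receptor that marks fibroblasts, was at 368 against 2.66 CPM (ratio 138, 119 to 162). Transcription factors of the jaw were among the genes higher in members than in all other cells. Prrx1, a mesenchymal homeobox factor, was at 586 against 14.4 CPM. The jaw and tooth factors Barx1, Msx1 and Pax9 were at 121, 102 and 72.5 CPM against 4.73, 3.51 and 5.96 CPM, each with a UMI in 46.5% to 52.8% of members. None of 28 HOX genes, which pattern the body below the head, reached the 10 CPM needed to be measured. Their sum was 4.59 CPM, against 5.31 CPM in all other cells. Dividing cells were scarce, since 7 of 10 cell cycle genes were at least 2-fold lower and Mki67, a proliferation marker, was at 6.33 CPM with a UMI in 1.32% of members.

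Set against the other non-leukocytes of the diabetic library, the picture narrowed. These were 192 mural, 41 Schwann and 114 epithelial cells, each with at least 10 UMIs of its own marker sum and under 10 collagen UMIs. Of 6691 genes, 17.9% were at least 2-fold higher in fibroblasts and 8.44% at least 2-fold lower. Of the collagens 17 of 18, of the proteoglycans 10 of 10, of the elastic fibre genes 16 of 16 and of the complement genes 11 of 12 were at least 2-fold higher. The rule's collagen limit set this contrast too. Decorin had a ratio of 178 (158 to 203). The peptidase inhibitor Pi16 had no UMI in the 3 types and was at least 609-fold higher in fibroblasts, and the WNT antagonist Sfrp4 at least 384-fold. Prg4 (1:150449412-150466221), which encodes the lubricant proteoglycan 4, had 2 UMIs in the 3 types and a ratio of 2898 (802 to 23939). Apod, a lipid carrier, was less distinctive with a ratio of 11.3, and Schwann cells had it at 10363 CPM. Neutrophil chemokines did not stand apart from these cells as a list, with 2 of 6 higher and 1 lower. The jaw and tooth factors were mixed, with 6 of 13 higher and 4 lower and sums of 544 CPM in fibroblasts and 483 CPM in the 3 types.

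**Figure D1:**
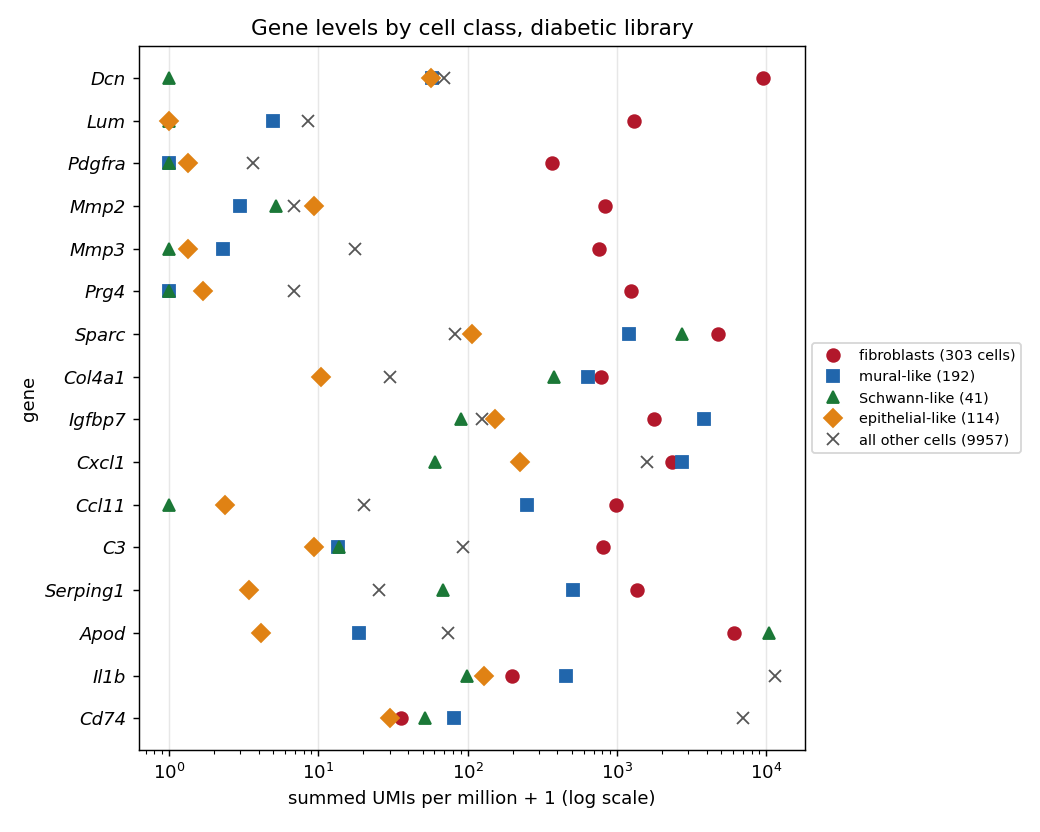
Gene levels by cell class in the diabetic library: summed UMIs scaled to 1000000 (CPM) plus 1 on a log axis, 1 row per gene, 1 mark per class (fibroblast members, mural, Schwann and epithelial cells, all other cells). Matrix genes such as Dcn and Lum lie far to the right in fibroblasts (9565 and 1309 CPM), Cxcl1 lies close between fibroblasts and mural cells (2348 and 2719 CPM), and Il1b and Cd74 are highest in the other cells (11415 and 6958 CPM).

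Within the diabetic library the genes whose levels moved most closely with decorin from cell to cell were Gsn (Spearman correlation 0.71 over 303 cells thinned to 1000 UMIs), Apod (0.55), Lum (0.42), Igfbp6 (0.42), Serpinf1 (0.39), C3 (0.39), Cd34 (0.38) and Abca8a (0.38). The cells share a library, and 6379 genes were ranked. Members with mural or Schwann sums were included. The lowest correlations were those of Tmsb4x (-0.49), Tpm1 (-0.49), Acta2 (-0.48) and Tagln (-0.47), the last 2 of them genes of the mural sum. Correlations within strict members were not computed.

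Clustering of all 322 members on variable genes, without the genes of the rule, gave 9 groups. The genes that define a group shaped it, so its levels are a description. Group 1 (101 cells) had Cxcl13 (1798 CPM), the retinoic acid enzyme Aldh1a2, Sfrp4 and C3 among its leading genes by ratio, with other genes ranked between them. They had a UMI in 32.7%, 48.5%, 55.4% and 84.2% of its cells. Its first gene by ratio, Mup5, came from 2.97% of its cells. Group 2 (52 cells) expressed all 8 genes of the periodontal ligament list in at least 20% of cells, among them periostin (Postn, 2618 CPM), asporin (Aspn, 2584 CPM) and tenascin N (Tnn, 1170 CPM), and is called periodontal ligament-like. Mmp13 was at 2670 CPM in group 2. The osteoblast list was also higher in this group than in the other members, at 492 against 86.1 CPM, with 3 of 8 genes in at least 20% of cells. Group 7 (16 cells) had all 8 markers of the adventitial Pi16 list in at least 20% of cells, which also held for group 1. The list summed to 12776 CPM in group 7 and 5635 CPM in group 1. Group 7, with Pi16 at 3582 CPM and the surface peptidase Dpp4 at 252 CPM, is called adventitial Pi16-like.

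Other groups carried inflammatory genes. Group 5 (26 cells) had Timp1 at 12957 CPM, Cxcl14 at 6694 CPM, Cxcl5 at 5957 CPM, Saa3, an acute phase protein, at 3919 CPM and the interleukin-33 receptor Il1rl1 at 2899 CPM. Group 6 (39 cells) had Apod at 42875 CPM, Dcn at 28664 CPM, Cxcl1 at 5840 CPM, Ccl2 at 4730 CPM and Ccl11 at 3744 CPM. The neutrophil chemokines Cxcl5 and Cxcl1 thus had their highest levels in different groups. Group 9 (10 cells) had Cxcl14 at 17071 CPM, Fgf10 at 920 CPM and lipoprotein lipase (Lpl) at 2733 CPM. Group 8 (6 cells) had the myogenic genes Myf5, Cdh15 and Chrna1 among its leading genes. Both stayed unnamed.

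Groups 3 and 4 held most of the members with mural or Schwann markers. The mural sum also reached 10 UMIs in 8 cells of group 2, 3 of group 8 and 2 of group 1, and the Schwann sum in 1 cell of group 6. Group 3 (16 cells, 15 of them with at least 10 Schwann UMIs) was Schwann-like, with a median of 20 collagen UMIs, and group 4 (56 cells) was mural-like. Decorin was at 15.2 and 130 CPM in them, and 284 CPM in group 8, against 5592 to 28664 CPM in the other 6 groups, and Pdgfra was at 0 in groups 3, 4 and 8. No doublet caller was run, and whether these cells are doublets, free RNA or cells of those types with collagen was not tested. The median UMI counts of groups 3 and 4 were 7154 and 11170, below the 13384 of all diabetic members. They were above the 4643 of the Schwann cells and the 7829 of the mural cells outside the rule in the diabetic library. Prg4 crossed the groups, at 1953 CPM in group 1, 2308 in group 5, 2428 in group 7 and 1905 in group 9, and at 0 in groups 3 and 8.

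**Figure D2:**
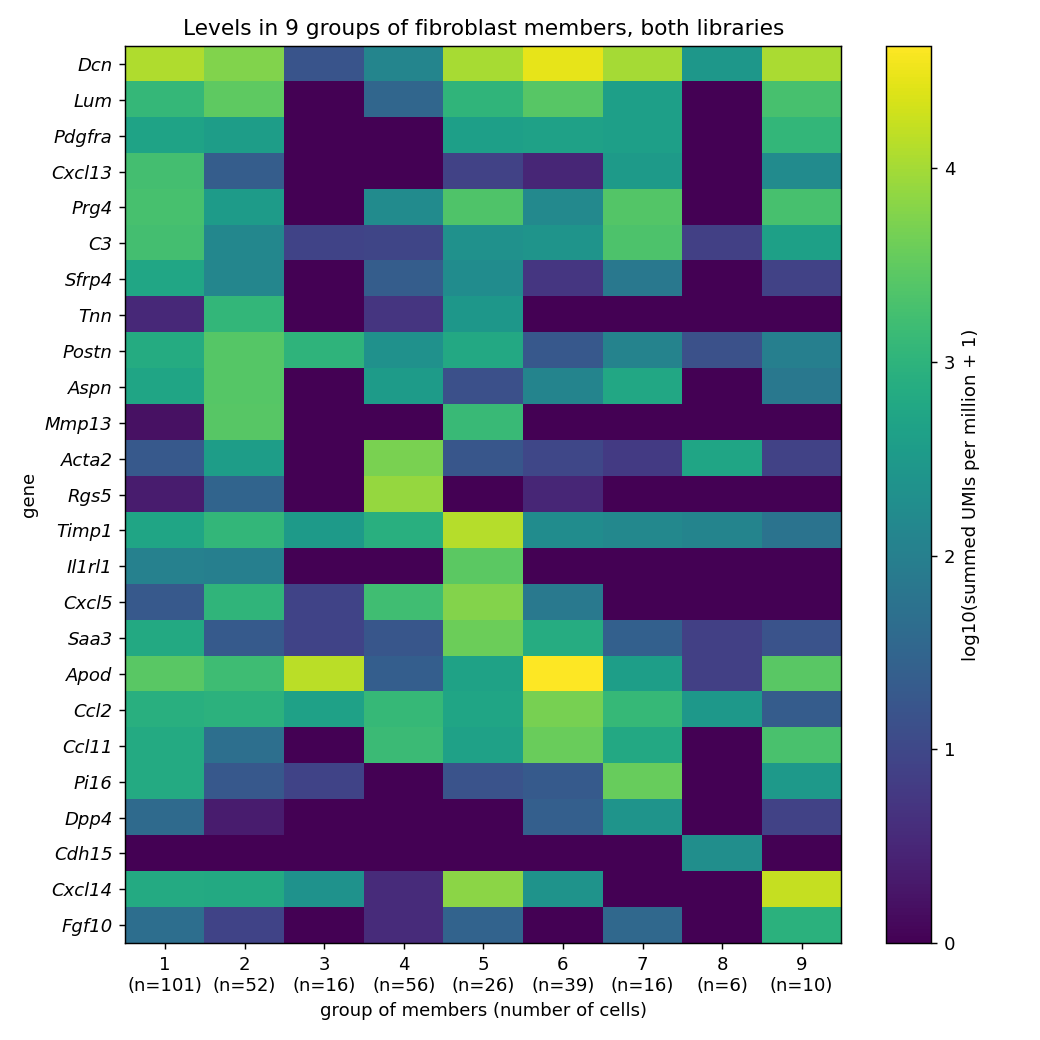
Levels of selected genes in the 9 groups of fibroblast members from both libraries, as log10 of CPM plus 1; columns are groups with their number of cells and rows are genes. Cxcl13 is highest in group 1 (1798 CPM), the periodontal ligament genes in group 2, Apod in group 6 (42875 CPM) and Pi16 in group 7 (3582 CPM).

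The comparison of diabetic with normoglycemic fibroblasts did not enter the rule. It rests on 19 cells of 1 pool on the normoglycemic side. Of 3542 genes, 246 (6.95%) were at least 2-fold higher and 325 (9.18%) at least 2-fold lower in diabetic members, so that 43.1% of these genes were higher. TMM scaling shifted all log2 ratios by 0.15 and raised that share to 62.2%. Among strict members the percentages were 6.79% and 9.3% of 3550 genes. In group 1, with 12 normoglycemic and 89 diabetic cells, they were 8.36% and 12.1% of 3575 genes. All these genes had at least 50 CPM on the higher side, while the list genes counted below needed only 10 CPM. The shares are therefore not an equal background for the list counts.

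Genes of other cell types differed between the members of the 2 libraries. The mural sum reached 10 UMIs in 1 of 19 normoglycemic and 68 of 303 diabetic members, and the Schwann sum in 4 and 12. The 10 mural genes summed to 276 CPM in normoglycemic and 3276 CPM in diabetic members, with 7 of 10 at least 2-fold higher and Myh11 and Cnn1 at 0 in the normoglycemic members. The 8 Schwann genes summed to 3581 and 470 CPM, with 6 of 8 at least 2-fold lower. The contractile genes Acta2 (ratio 66.0, 22.6 to 320.3) and Tagln (42.9, 14.7 to 208) and the pericyte gene Rgs5 (18.2) were among the top genes on the diabetic side, while the myelin gene Mbp was among the top on the normoglycemic side. In strict members the mural sums were 78.8 and 146 CPM, the Schwann sums 389 and 277 CPM, and the Acta2 ratio was 1.02 (0.330 to 5.08). Leukocyte genes summed to 435 and 536 CPM and epithelial genes to 13.6 and 14.0 CPM. For most genes named below the ratio in strict members, in group 1 or in both is therefore given as well.

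Chemokines were higher in the diabetic fibroblasts. All 5 measured neutrophil chemokines and 7 of 11 other chemokines were at least 2-fold higher, with 0 and 2 at least 2-fold lower, and the counts in strict members were 5 of 5 and 6 of 11. Cxcl1 (5:90891245-90893121) was at 702 CPM in normoglycemic and 2348 CPM in diabetic members, a ratio of 3.35 (2.86 to 3.95). Its level per cell had a median of 192 CPM and a maximum of 3558 CPM in the normoglycemic members, and a median of 359 CPM and a maximum of 22176 CPM in the diabetic members, so the ranges overlapped and the diabetic cells extended higher. A single normoglycemic cell gave 40.0% of its library's Cxcl1 UMIs. The ratio was 3.30 in strict members and 2.26 in group 1, while other cells of the libraries had Cxcl1 at 1363 and 1599 CPM.

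The neutrophil chemokines did not all behave alike inside group 1. Cxcl2 (ratio 2.21 over all members) had a ratio of 0.87 (0.708 to 1.07) there, Cxcl3 (3.27) of 0.69 (0.311 to 1.80) and Cxcl5 (6.47) of 0.66 (0.232 to 2.62), each with an interval that includes 1, although Cxcl5 in the normoglycemic members came to 90.0% from 1 cell. The difference between all members and group 1 was not tested. Ccl11 was higher in all 3 sets of cells, at 231 and 988 CPM over all members (ratio 4.28, 3.25 to 5.76), with ratios of 4.89 in strict members and 2.80 in group 1. A Ccl11 UMI was found in 7 of 19 and 174 of 303 members, and after thinning in 10.5% and 36.3%, against 0.0187% and 0.535% of other cells. Ccl2 and Ccl7, both monocyte chemokines, had ratios of 2.73 and 2.69 over all members and of 1.37 and 2.84 in group 1. Cxcl12 was nearly equal over all members, with a ratio of 1.16 (0.954 to 1.42), and stood at 2.55 in group 1. Cxcl14 had a ratio of 3.06, and 93.5% of its normoglycemic UMIs lay in 1 cell. A further filter, the 5-UMI removal, took out members with 5 or more UMIs of the mural, Schwann, epithelial, endothelial or red cell list. The leukocyte and neutrophil lists did not enter it. The limit was not scaled to the depth of a cell. It removed 13 normoglycemic and 185 diabetic members, against 5 and 80 under the limits of the strict members, and left 6 normoglycemic and 118 diabetic cells. Group 1 held 296 CPM of the Schwann list, although 0 of its cells reached 10 UMIs of the Schwann sum. Whether the removal took out deeply sequenced fibroblasts was not tested. After this removal the ratios moved up, to 57.1 (19.5 to 277) for Cxcl1, 97.6 (17.5 to 3855) for Cxcl5, 6.31 (3.75 to 11.6) for Cxcl2 and 6.35 (3.54 to 12.7) for Ccl11. The wide intervals for Cxcl1 and Cxcl5 come from few UMIs in the 6 normoglycemic cells.

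Cxcl13 (5:95956939-95961068) was found in 47 of 303 diabetic members and in 0 of 19 normoglycemic members, a count that still allows up to 15.8% of cells with a UMI (3 of 19). It stood at 675 CPM in diabetic members, 49.7-fold above the level that 3 UMIs would give in the normoglycemic library. That bound counts UMIs and not cells. In group 1, which Cxcl13 helped to shape, 33 of 89 diabetic cells and 0 of 12 normoglycemic cells had it, and 0 of 12 allows 25%. Other cells had Cxcl13 at 1.70 and 18.2 CPM. After thinning, a Cxcl13 UMI was left in 8.25% of diabetic members and in 0.680% of other diabetic cells.

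Prg4, Mmp13, Cilp and Saa3 had few or no UMIs in the normoglycemic members. Prg4 was at 86.0 CPM in normoglycemic and 1248 CPM in diabetic members (ratio 14.5, 9.28 to 24.1), with a UMI in 2 of 19 and 126 of 303 cells and 17 of the 19 normoglycemic UMIs in 1 cell. Its ratio was 15.9 in strict members and 16.7 (10.7 to 27.7) in group 1. It was 132 (36.5 to 1090.5) when 30 collagen UMIs were required, and the other cells had it at 0.259 and 5.87 CPM. Mmp13 (9:7272514-7283333) was at 624 CPM in diabetic members, from 24 of 303 cells, and at 0 in normoglycemic ones. That is 45.9-fold above the level that 3 UMIs would give in the normoglycemic library. This bound counts UMIs and not cells, and 0 of 19 cells still allows up to 15.8% of cells with a UMI. The bound was 51.2 in strict members and 28.2 after the 5-UMI removal. Mmp13 lay mainly in group 2, which held 51 diabetic cells and 1 normoglycemic cell, and had 1 UMI in group 1. Cilp, a cartilage matrix protein, was at 142 CPM in diabetic members, from 43 of 303 cells, and at 0 in the normoglycemic members. Its bound against 3 UMIs was 10.4 over all members, 11.5 in strict members, 15.1 in group 1 and 2.72 after the 5-UMI removal. The limit of 15.8% of cells applies to Cilp as well. Saa3 had 1 UMI in the normoglycemic members against 795 CPM in 69 diabetic cells (ratio 176, 31.5 to 6936), with ratios of 197 (35.4 to 7793) in strict members and 107 (19.1 to 4217) in group 1, but other cells of the libraries had it at 937 and 652 CPM.

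Of 12 complement genes 2 were at least 2-fold higher and none lower. They were the classical component C4b and the alternative pathway factor Cfb. C4b had 5 UMIs in 4 normoglycemic cells and was at 223 CPM in diabetic members (ratio 9.85, 4.21 to 30.4), and the ratio was 17.0 (5.80 to 82.5) in strict members and 23.7 (8.07 to 115) in group 1. Cfb had ratios of 2.86, 3.18 and 7.45 in the same order. C3 was at 471 and 808 CPM (ratio 1.72, 1.41 to 2.11), with ratios of 1.93 and 3.13 in strict members and in group 1, whose definition C3 helped to shape. The pentraxin Ptx3, an innate recognition protein, was at 109 and 730 CPM (ratio 6.72, 4.51 to 10.5), with 8.92 in group 1. Apod had a ratio of 3.96 over all members and 1.49 in group 1.

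Of 16 elastic fibre genes 5 were at least 2-fold lower in the diabetic members and 2 higher, with the same counts in strict members and 4 lower and 2 higher under TMM scaling. Elastin (Eln, 5:134702595-134747368) was at 1000.5 CPM in normoglycemic and 152 CPM in diabetic members (ratio 0.152, 0.131 to 0.178). Its median per cell was 163 CPM against 0, and a UMI was found in 13 of 19 and 139 of 303 members, or in 36.8% and 12.9% after thinning. A single normoglycemic cell gave 44.3% of the elastin UMIs. The latent TGF-beta binding protein Ltbp4 (7:27305140-27339720), which elastic fibre assembly needs, was at 1145 and 232 CPM (ratio 0.203, 0.176 to 0.233), with medians of 915 and 119 CPM per cell and a share of 47.4% and 19.5% after thinning. In strict members the ratios were 0.13 for Eln and 0.22 for Ltbp4, and in group 1 they were 0.17 and 0.27. Other cells had Eln at 1.97 and 2.21 CPM and Ltbp4 at 2.75 and 4.79 CPM. After the 5-UMI removal the ratio was 0.64 for Eln (0.337 to 1.35, an interval that includes 1) and 0.64 for Ltbp4 (0.440 to 0.981).

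Of 18 collagens 1 was at least 2-fold higher and none lower, or 3 and none under TMM scaling, with a median log2 ratio of -0.28 over the collagens beside -0.08 over all genes measured. The collagen list summed to 27578.5 CPM in normoglycemic and 17904.2 CPM in diabetic members. In the same order the median cell had Col1a1 at 2925 and 1341 CPM, Col1a2 at 3640 and 2336 CPM and Col3a1 at 4851 and 2639 CPM. The rule used these 3 genes to choose the cells. Of 10 small leucine-rich proteoglycans 3 were at least 2-fold lower and 1 higher, with a median of -0.59, and under TMM scaling 1 was lower and 1 higher. Fibromodulin (Fmod), which regulates fibril growth, was at 837 CPM from 3 normoglycemic cells and at 253 CPM in diabetic members. Decorin was at 13409 and 9565 CPM (ratio 0.713, 0.687 to 0.741), with medians per cell of 12043 and 7645 CPM and full overlap. Its ratio was 0.82 in strict members and 0.86 in group 1, but 1.34 (1.24 to 1.45) after the 5-UMI removal, so its direction depended on that choice. Lumican was at 2639 and 1309 CPM (ratio 0.496), and 0.52 and 0.35 in strict members and in group 1. Gsn, gelsolin, an actin-severing protein, had a ratio of 0.48 over all members and 0.59 in group 1. Pdgfra was nearly equal at 362 and 368 CPM (ratio 1.02, 0.813 to 1.29), with 1.11 in strict members and in group 1.

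Matrix glycoproteins split by gene, with 6 of 27 at least 2-fold higher and 3 lower. Periostin (Postn) was at 2005 and 756 CPM (ratio 0.377) and had a ratio of 0.22 in group 1. Fibronectin was at 3083 and 1248 CPM (ratio 0.405), with 0.33 in group 1, but its ratio was 1.68 after the 5-UMI removal, so its direction depended on that choice. Spon2, a secreted matrix protein that was chosen after its values were seen, was at 376 and 75.3 CPM, with 0.20 in group 1. Tenascin C (Tnc), a glycoprotein of remodelling tissue, had 1 UMI in the normoglycemic members and 176 CPM in the diabetic ones (ratio 38.9, 6.97 to 1540), with 22.3 (3.98 to 884) in strict members.

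Of 27 TGF-beta and BMP genes 10 were at least 2-fold lower in diabetic members and 2 higher, and in strict members 9 and 2 of 28. Under TMM scaling 7 were lower and 4 higher. Id2, an inhibitor of helix-loop-helix factors that BMP signals induce, was at 380 and 90.0 CPM (ratio 0.237), with 0.11 in group 1, and other cells had it at 677 and 506 CPM. Immediate early genes, which cells switch on within minutes of a stimulus, had 6 of 20 members at least 2-fold lower and none higher, or 4 lower under TMM scaling. The phosphatase gene Dusp1 was at 2209 and 918 CPM (ratio 0.415, but 0.93 after the 5-UMI removal) and Ier3 at 1544 and 743 CPM (ratio 0.481). Foxo1, the floxed gene of both groups, was at 72.4 CPM from 16 UMIs and at 39.5 CPM (ratio 0.546, 0.327 to 0.975), and the interval included 1 in group 1 (0.2998 to 1.07) and after the 5-UMI removal (0.202 to 1.58). Il6 was at 290 and 597 CPM, a ratio of 2.06 over all members and of 1.42 in strict members, with 2.61 in group 1. Timp1 was at 1213 and 2075 CPM (ratio 1.71), with 6.58 in group 1 and 46.1 (18.0 to 169) after the 5-UMI removal.

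**Figure D3:**
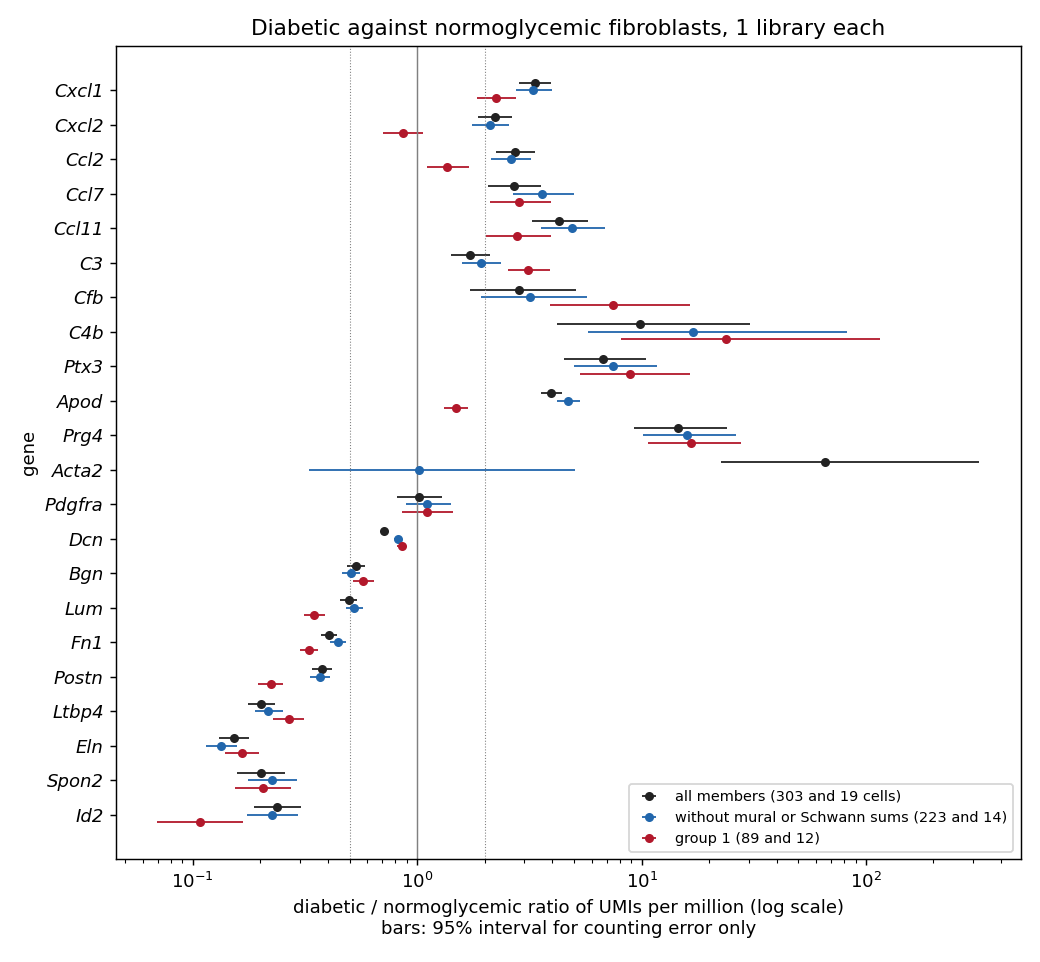
Ratio of diabetic to normoglycemic CPM on a log axis, 1 row per gene, for all members, strict members and group 1, with bars for the 95% counting interval; ratios against 0 UMIs are not drawn. Prg4, C4b, Ptx3 and Ccl11 lie above 1 in all sets of cells, Eln, Ltbp4, Postn and Lum below 1, and Cxcl2 lies above 1 over all members (2.21) and below 1 in group 1 (0.87).

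**Figure D4:**
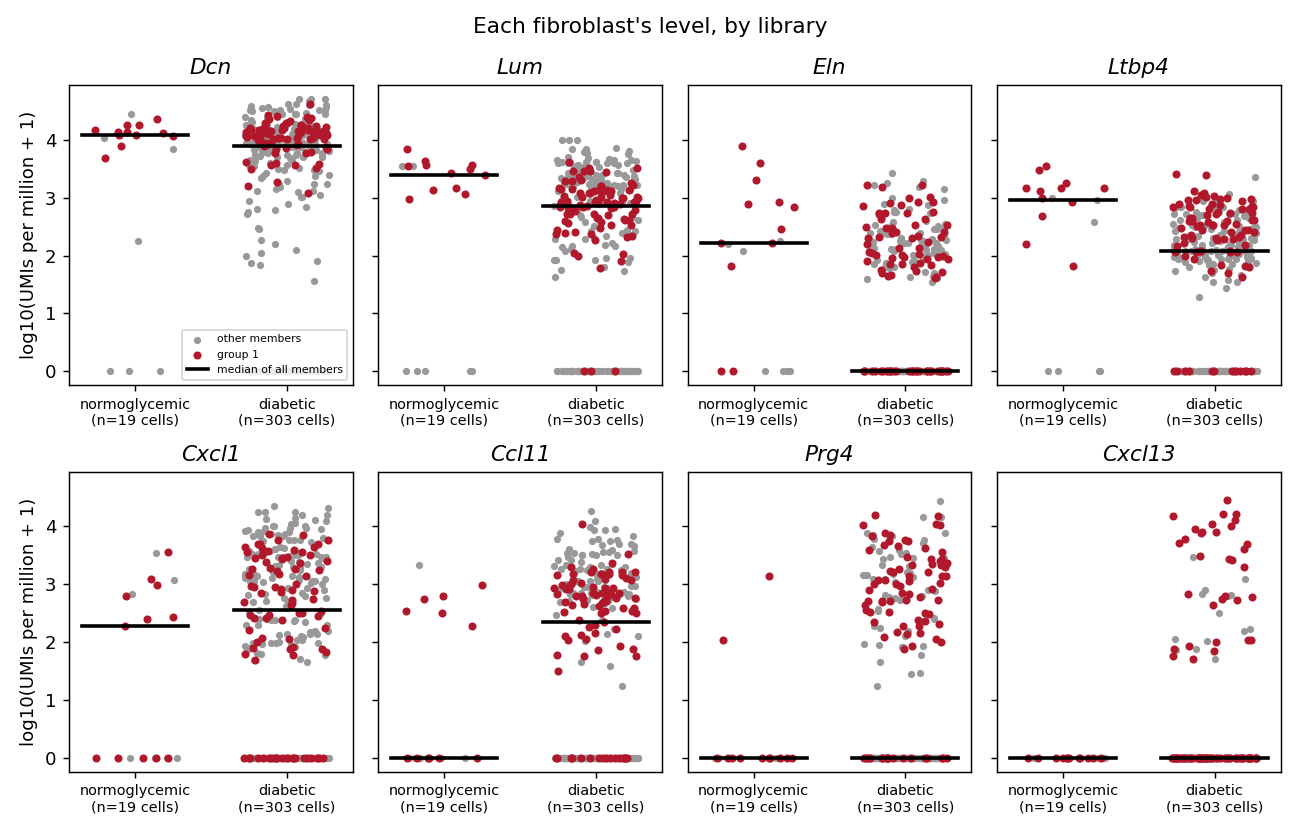
Level of single genes in each fibroblast as log10 of CPM plus 1, with the 19 normoglycemic and 303 diabetic cells side by side, group 1 in red and the median of all members as a bar. The libraries overlap for every gene drawn, cells with no UMI lie at 0, and Cxcl13 has no normoglycemic cell above 0.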

How the data were processed

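Cells were measured with Chromium 3′ v3 single-cell RNA sequencing in 1 normoglycemic and 1 diabetic library. The authors deposited UMI counts per gene and cell, made with Cell Ranger (6.0.2 and build mm10 per the submitters' processing notes, 4.0.0 per the file headers). The deposited matrices held 11280 and 10496 barcodes, 32285 genes and 4 antibody tag features, which were kept apart from genes. Members and gene lists were chosen with earlier results of these data known. No doublet caller was run. Some genes are not reported here.

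UMIs were summed over cells and scaled to 1000000 (CPM). Ratios carry exact conditional binomial 95% intervals, and shares exact Clopper-Pearson intervals, for counting error only. A ratio of 2 or more was counted with at least 20 CPM on the higher side, or between libraries with at least 50 CPM and 10 UMIs. List genes needed 10 CPM. Against 0 UMIs a floor of 3 UMIs was used. The calculations were tested on simulated data. Genes were named by fixed lists (up to 6 a list) and rankings of ratios. C4b, Cfb, Ptx3, Bgn, Lum, Postn, Fn1, Gsn, Spon2, Id2, Dusp1, Ier3, Foxo1, Tnc and others whose values between libraries fell outside that rule were chosen after their values were seen. Alternatives changed filters, scaling (edgeR 4.0.16 TMM factors under R 4.3.3, median-of-ratios factors), weighting of cells and clustering. Python 3.11.15, numpy 2.4.6, scipy 1.17.1, pandas 2.3.3, scanpy 1.11.5, igraph 0.11.9 and matplotlib 3.10.9 were used.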

Additional observations from a re-analysis of the deposited data

Results flagged for a closer look

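The libraries also held counts of 4 antibody tags, C1 to C4, which no comparison above used. Tag counts were above 0 in the fibroblasts, although no control sample without tags was analysed. Summed over the 19 normoglycemic members they were 14 for C1, 68 for C2, 86 for C3 and 23 for C4. Summed over the 303 diabetic members they were 215 for C1, 1521 for C2, 701 for C3 and 134 for C4. A single diabetic cell held 1286 of the C2 counts, and a single cell held 573 of the C3 counts. At least 1 count was found in 26.7%, 43.6%, 33.3% and 28.4% of diabetic members for C1 to C4, against 45.3%, 67.6%, 54.6% and 61.1% of other diabetic cells. The labels do not say what the tags mark, so no cell was assigned by them.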

How the results depend on the processing

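No paired analysis was possible because each condition had 1 pooled library. Of the shares and counts reported, 90 values under alternatives stayed near the main value and 19 moved. A share or count was not scored for direction. The balance of genes past 2-fold did change under TMM scaling. Against all other cells 64.7% of them were higher in the main setting and 35.4% under TMM, and between libraries 43.1% and 62.2%. Of the single-gene ratios 692 stayed near the main value, 285 moved and 7 turned direction, counting only ratios past 2-fold as turned. The diabetic share of fibroblasts was 3.36% with a collagen minimum of 5 UMIs, 2.31% with 30 UMIs, 2.17% for strict members (chosen after seeing the data) and 1.15% after the 5-UMI removal, where the normoglycemic share was 0.0548%. That removal left 6 and 118 cells and gave 581 genes at least 2-fold higher and 708 lower between libraries. Against other cells TMM gave 1081 higher and 1974 lower, median-of-ratios factors 1080 and 1976, and no filter on low values 7114 and 7316. Against the 3 other types no filter gave 4461 and 3617. Between libraries TMM gave 375 higher, and no filter 6556 and 2204. The unthinned share of diabetic members with decorin was 80.5%. Clustering gave 11 groups at the higher resolution, 7 at the lower and 8 with diabetic members only. Ratios that turned were Acta2 (0.16), Fn1 (1.68) and decorin (1.34, from 0.713, under 2-fold both times) after the 5-UMI removal, and Cxcl2 (0.87), Cxcl3 (0.69), Cxcl5 (0.66), Spp1 (0.22) and Fmod (7.19) in group 1, a set added after seeing the data. The cause was not tested. No ratio could be had for Tagln, Rgs5 and Mbp after the 5-UMI removal, for Rgs5 and Mbp in strict members, or for Mmp13, Rgs5 and Mbp in group 1, where both sides were at or under the floor or the bound lay below 1. The 19 normoglycemic cells limit every comparison between libraries.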

Other observations

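Fibroblasts and other cells differed in the sex-linked genes of the pooled mice. Among diabetic fibroblasts with UMIs of Xist only or of Y-linked genes only, 117 were of the first and 137 of the second kind, so 46.1% carried Xist, and in the other diabetic cells 31.2% did. Within those other cells the share was 59.7% in mural, 62.5% in Schwann and 67.9% in epithelial cells, each above that of the fibroblasts. Neither kind of UMI was found in 47 of 303 diabetic fibroblasts and 4206 of 9957 other diabetic cells. Whether depth affected these shares was not tested. Among normoglycemic fibroblasts the numbers were 10 and 7, or 58.8%, against 22.2% of other cells.

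Mmp10, a stromelysin, had 247 UMIs in the diabetic fibroblasts, all in 1 cell. In the normoglycemic fibroblasts, Cxcl14 and Cxcl5 likewise came mainly from 1 cell (93.5% and 90.0% of their UMIs), so a summed level over 19 cells can be that of a single cell.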
